A study of Homo sapiens with 8 samples.

Results

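The data described here are the levels of 10 genes that are read as targets of bone morphogenetic protein (BMP) signalling, in the human glioblastoma cell line LN229-TAZ(4SA), whose name gives the parent line LN229 and a form of TAZ, a coactivator of the Hippo pathway. The genes are the inhibitors of DNA binding ID1, ID2, ID3 and ID4, the inhibitory SMADs SMAD6 and SMAD7, the decoy receptor BAMBI, the transcription factors ATOH8 and HEY1, and the secreted antagonist NOG. They were taken by symbol from the 13730 genes of the deposited table, all 10 were found, and all 10 passed the filter on low values. They had been picked because glucose deprivation changed them differently in knockout (KO) and control (EV) cells, so their levels and differences are given as a description, with no test. For 3 of the 10, SMAD7, ATOH8 and NOG, that difference, KO response minus EV response, was under 0.2 in size on the log2 scale.

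There were 4 groups with 2 RNA-seq libraries each: KO cells in glucose-deprived medium, EV cells in glucose-deprived medium, KO cells in regular medium and EV cells in regular medium. KO cells lack thioredoxin reductase TrxR1, the product of TXNRD1, according to the labels, EV cells are the controls, and all groups share the LN229-TAZ(4SA) background. The study's question was the joint effect of TrxR1 loss and glucose shortage. The labels give neither the number of knockout clones nor the hours of deprivation, and do not say whether libraries came from separate cultures. Within a group, libraries carry the letters a and b, which are only names, and their spread may be technical.

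Whole reads recovered from the table summed to 70083018 to 107229069 per library, and 1 read was worth 0.0095 to 0.0143 CPM (counts scaled to the library total), the unit of all levels below. TXNRD1 was at 361 CPM in KO and 501 CPM in EV cells in glucose-deprived medium, and at 247 CPM in KO and 262 CPM in EV cells in regular medium. A transcript with a disrupting edit can persist, so this level is no check of the knockout. TXNIP, a gene induced by glucose, was at 8.45 CPM in KO and 10.5 CPM in EV cells in glucose-deprived medium, and at 79.6 CPM in KO and 86.3 CPM in EV cells in regular medium. All 8 glioblastoma line markers had values. VIM, NES, CD44 and WWTR1, the gene of TAZ, were at 306 CPM or more in every library, SOX2, S100B and OLIG2 were at 56.0 CPM or less, and GFAP was at 0.67 to 1.41 CPM. Of 9 markers of other cell types 2 had values, the neuronal marker RBFOX3 (0.22 to 1.09 CPM) and CD68, a lysosomal protein gene that marks macrophages. CD68 also moved with the medium, with means of 46.6 CPM in KO and 52.9 CPM in EV cells in glucose-deprived medium and of 25.2 CPM in KO and 25.5 CPM in EV cells in regular medium. The part of these markers in the results was not tested.

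BMPs bind paired type I and type II receptor kinases, which phosphorylate SMAD1, SMAD5 and SMAD9. These enter the nucleus with SMAD4 and switch on a small set of direct targets, of which the ID genes are the classical readout. ID proteins have a helix-loop-helix but no DNA-binding region, pair with E proteins such as the product of TCF3, and keep those from binding DNA. In glioma cells ID proteins are associated with the stem-like state. SMAD6, SMAD7, BAMBI and NOG are induced by the pathway and restrain it, at the level of the SMADs, of the receptors and of the ligand. ID genes and HEY1 also answer to other signals, HEY1 being a classical Notch target.

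ID1 and ID3 stood among the 4 lowest deprivation differences of all genes in EV cells. ID1 (Entrez 3397; GRCh38 chromosome 20, 31605283 to 31606515, plus strand) had 18.5 and 25.8 CPM in KO and 14.4 and 14.9 CPM in EV cells in glucose-deprived medium, against 115 and 104 CPM in KO and 141 and 134 CPM in EV cells in regular medium. No groups overlapped, and on the log2 scale the libraries of deprived KO cells lay farthest from each other. In deprived against regular medium ID1 differed by -2.32 ± 0.12 in KO cells and by -3.22 ± 0.12 in EV cells (log2, SE), a 5.00-fold and a 9.34-fold lower level. In EV cells this was the third lowest value among 13057 genes. Differences in RNA per cell and in the make-up of the cultures cannot be told apart in bulk libraries.

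ID3 (Entrez 3399; chromosome 1, 23557918 to 23559794, minus strand) had 27.0 and 33.2 CPM in KO and 21.0 and 25.7 CPM in EV cells in glucose-deprived medium, against 177 and 160 CPM in KO and 201 and 205 CPM in EV cells in regular medium. Its order of groups was that of ID1, with EV cells on top in regular medium and at the bottom in glucose-deprived medium. The deprivation difference was -2.49 ± 0.10 in KO and -3.13 ± 0.10 in EV cells. That was the fourth lowest value of all genes in either cell type.

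ID2 was the member that moved in opposite directions. It lies on chromosome 2 (Entrez 3398; 8678845 to 8684453, plus strand) and had 35.7 and 40.0 CPM in deprived KO cells but 10.1 and 10.8 CPM in deprived EV cells, against 13.3 and 13.8 CPM in KO and 15.6 and 16.4 CPM in EV cells in regular medium. The 2 libraries of deprived KO cells stood above all others, and those of deprived EV cells below all others. Deprivation went with a difference of 1.48 ± 0.066 in KO cells, 2.79-fold higher, and of -0.61 ± 0.066 in EV cells, 1.53-fold lower. The interaction, the deprivation response in KO minus that in EV cells, was 2.09 ± 0.094, the sixth highest of 13057 genes. An antisense gene, ID2-AS1, has exons that overlap ID2, and the library kit does not mark strand, but its level of 0.46 to 1.10 CPM was small beside that of ID2.

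ID4 was higher in glucose-deprived medium in both cell types. It lies on chromosome 6 (Entrez 3400; 19837386 to 19840684, plus strand) and had 7.22 and 8.04 CPM in KO and 4.27 and 5.28 CPM in EV cells in glucose-deprived medium, against 3.06 and 3.35 CPM in KO and 3.77 and 3.85 CPM in EV cells in regular medium. The difference between deprived and regular medium was 1.24 ± 0.11 in KO cells and 0.31 ± 0.11 in EV cells, with no overlap between groups. The value in EV cells was 0.47 without deprived EV library a and 0.16 without library b.

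Set on a scale per kilobase of exon, the ID genes changed their balance. The lengths, 1233 bases for ID1, 2205 for ID2, 1797 for ID3 and 2344 for ID4, count every annotated exon. Which exons these cells use was not tested, and comparisons between genes depend on it. In regular medium ID1 and ID3 led by far, with 88.7 and 93.8 CPM per kb in KO and 111 and 113 CPM per kb in EV cells, while ID2 was at 6.14 CPM per kb in KO and 7.25 CPM per kb in EV cells. By these lengths ID1, ID2 and ID3 stood at nearly the same level in deprived KO cells, 17.9, 17.2 and 16.8 CPM per kb. In deprived EV cells ID1 and ID3 were at 11.9 and 13.0 and ID2 at 4.75 CPM per kb. ID4 was below ID2 in every group, at 3.26 CPM per kb in KO and 2.04 in EV cells in glucose-deprived medium, and at 1.37 in KO and 1.63 in EV cells in regular medium.

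**Figure D1:**
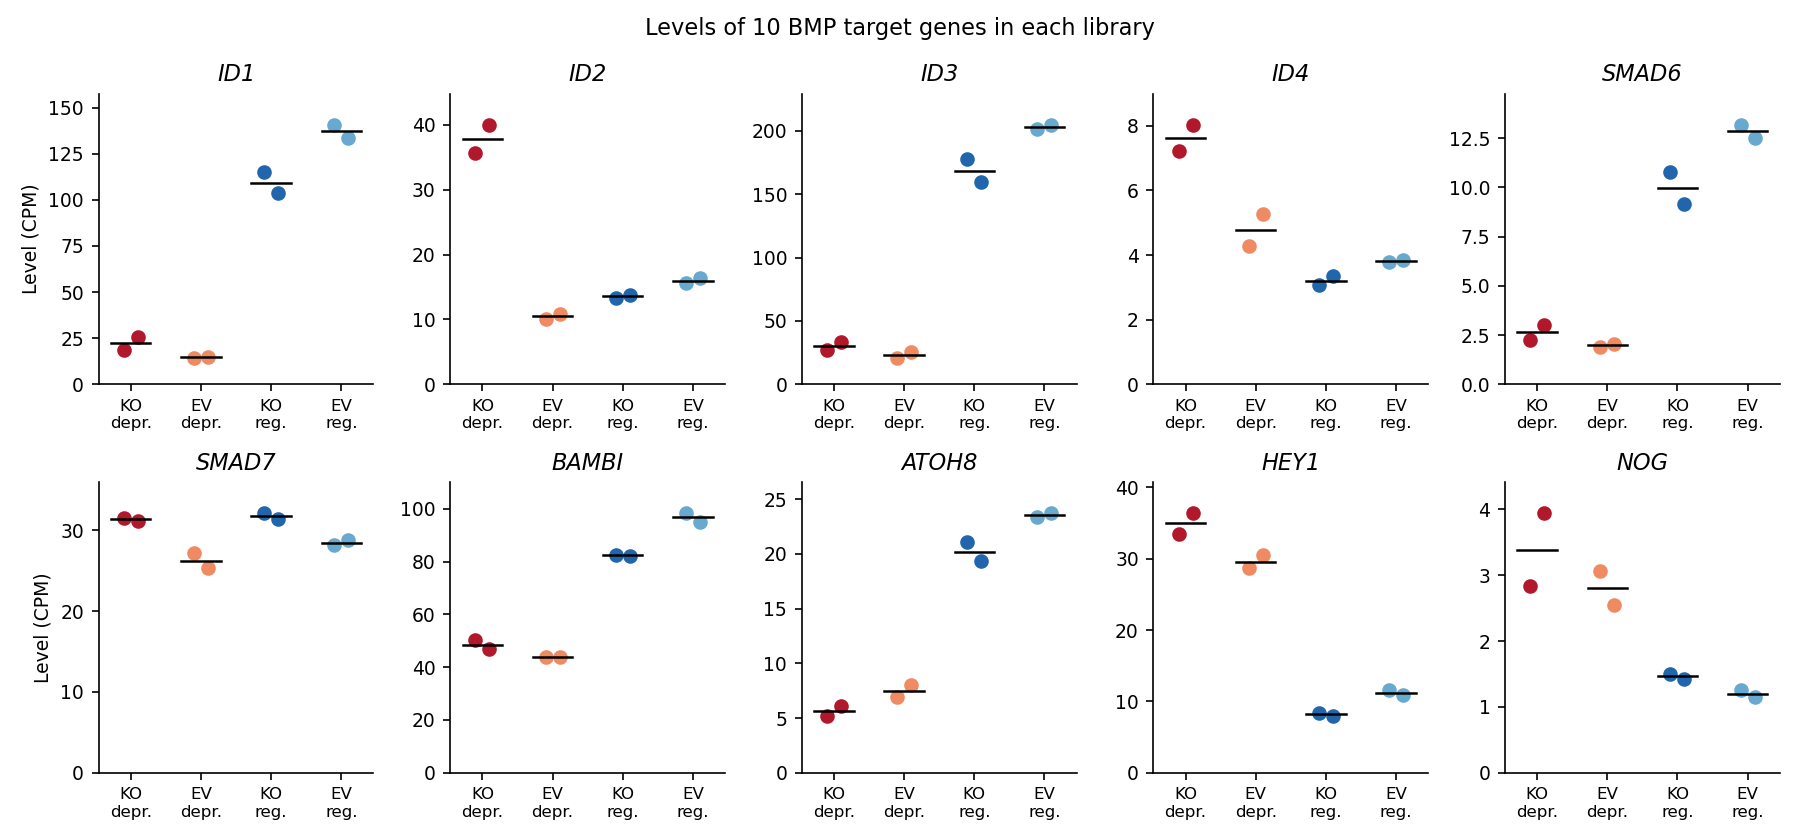
Level of each of the 10 genes in CPM (vertical axes, linear from 0) in the 2 libraries of each group (points), with the group mean as a horizontal line, for KO and EV cells in glucose-deprived medium (depr.) and KO and EV cells in regular medium (reg.). ID1, ID3, SMAD6, BAMBI and ATOH8 are low in glucose-deprived medium, ID4, HEY1 and NOG are high there, ID2 is high in deprived KO cells alone, at 35.7 and 40.0 CPM, and SMAD7 changes least.

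The inhibitors that act inside the cell or at its surface were split. SMAD6, which blocks BMP-activated SMADs (Entrez 4091; chromosome 15, 66702228 to 66782848, plus strand), had 2.27 and 3.00 CPM in KO and 1.90 and 2.05 CPM in EV cells in glucose-deprived medium, against 10.8 and 9.18 CPM in KO and 13.2 and 12.5 CPM in EV cells in regular medium. It followed the order of ID1 and ID3, with deprivation differences of -1.92 ± 0.13 in KO and -2.69 ± 0.13 in EV cells. BAMBI, a receptor-like protein without a kinase (Entrez 25805; chromosome 10, 28677342 to 28682939, plus strand), had 50.1 and 46.9 CPM in KO and 43.7 and 43.7 CPM in EV cells in glucose-deprived medium, against 82.4 and 82.2 CPM in KO and 98.3 and 95.04 CPM in EV cells in regular medium. It showed the same order on a smaller scale, -0.76 ± 0.042 in KO and -1.14 ± 0.042 in EV cells.

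SMAD7, which blocks both TGF-beta and BMP receptors, hardly answered to the medium. On chromosome 18 (Entrez 4092; 48919853 to 48952052, minus strand), it had 31.5 and 31.2 CPM in KO and 27.2 and 25.3 CPM in EV cells in glucose-deprived medium, against 32.1 and 31.3 CPM in KO and 28.1 and 28.8 CPM in EV cells in regular medium. The KO groups overlapped with each other and lay above both EV groups. Its deprivation difference was -0.017 ± 0.048 in KO and -0.12 ± 0.048 in EV cells, and its interaction 0.099 ± 0.068. Without deprived EV library b the value in EV cells was -0.064 and the interaction 0.047, and without library a the interaction was 0.15.

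ATOH8, a helix-loop-helix factor (Entrez 84913; chromosome 2, 85751344 to 85788066, plus strand), had 5.18 and 6.07 CPM in KO and 6.90 and 8.02 CPM in EV cells in glucose-deprived medium, against 21.0 and 19.4 CPM in KO and 23.3 and 23.7 CPM in EV cells in regular medium. It was low in glucose-deprived medium like ID1, but lower in KO than in EV cells in both media, with an interaction of -0.18 ± 0.13. That value lay between -0.30 and -0.071 as single libraries were left out, nearest to 0 without deprived KO library a or deprived EV library b. NOG, noggin, which binds BMPs outside the cell (Entrez 9241; chromosome 17, 56593699 to 56595590, plus strand), was also higher in glucose-deprived medium. It had 2.83 and 3.94 CPM in KO and 3.07 and 2.55 CPM in EV cells in glucose-deprived medium, against 1.51 and 1.43 CPM in KO and 1.26 and 1.14 CPM in EV cells in regular medium. The deprived KO and EV libraries overlapped, and the deprivation differences lay within their errors of each other, 1.18 ± 0.17 in KO and 1.21 ± 0.17 in EV cells.

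HEY1 (Entrez 23462, chromosome 8), a repressor of the HES and HEY family, was higher with deprivation in both cell types. It had 33.5 and 36.4 CPM in KO and 28.7 and 30.5 CPM in EV cells in glucose-deprived medium, against 8.34 and 8.02 CPM in KO and 11.6 and 10.9 CPM in EV cells in regular medium. The difference was 2.09 ± 0.062 in KO cells, 4.26-fold higher, and 1.39 ± 0.062 in EV cells, 2.63-fold higher. It was the member with the largest knockout difference in regular medium, where KO cells were lower (-0.46 ± 0.062).

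**Figure D2:**
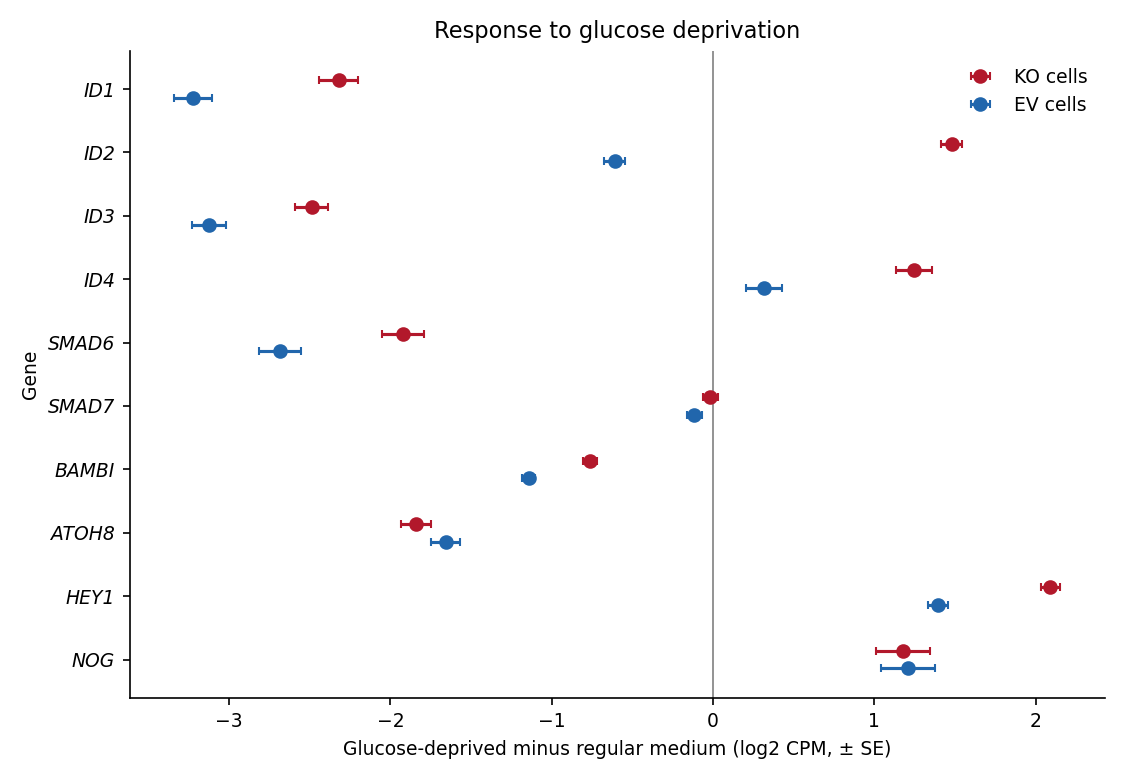
Difference between glucose-deprived and regular medium (horizontal axis, log2 CPM, with SE bars) for each of the 10 genes in KO cells (red, upper point of each pair) and EV cells (blue, lower point). The KO point lies to the right of the EV point for ID1, ID2, ID3, ID4, SMAD6, SMAD7, BAMBI and HEY1, by most for ID2 and by least for SMAD7. It lies to the left for ATOH8 and, by less, for NOG.

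Across the media, 7 of the 10 genes (ID1 to ID4, SMAD6, BAMBI and HEY1) had a lower mean in KO than in EV cells in regular medium and a higher one in glucose-deprived medium, where 21.2% of all genes tested had this pair of signs. Between KO and EV cells in glucose-deprived medium 8 members were higher without overlap, 1 was lower and 1 overlapped, with 28% and 33.1% of all genes being higher and lower without overlap. In regular medium 2 members were higher and 8 lower without overlap, with 27.7% of all genes in each direction. The members were chosen on these values and nothing is read from the counts. The median difference of the 10 was 0.31 in glucose-deprived and -0.24 in regular medium, beside -0.0057 and -0.0033 over all genes. In glucose-deprived medium KO minus EV was 1.85 ± 0.066 for ID2, the fifth highest of all genes, 0.68 ± 0.11 for ID4, 0.57 ± 0.12 for ID1, 0.40 ± 0.13 for SMAD6, 0.37 ± 0.10 for ID3, 0.24 ± 0.062 for HEY1 and 0.15 ± 0.042 for BAMBI. In regular medium the same genes lay between -0.46 (HEY1) and -0.23 (BAMBI). The ID1 value in glucose-deprived medium depended on deprived KO library a, being 0.81 without it and 0.33 without library b. The same held for SMAD6, at 0.60 without library a and 0.20 without b, and for ID3, at 0.52 without a and 0.22 without b. The ID3 value moved as far with the deprived EV libraries, to 0.22 without a and 0.51 without b.

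In glucose-deprived against regular medium 4 members were higher and 5 lower without overlap in KO cells, and 3 higher and 7 lower in EV cells. Over all genes 41.6% were higher and 42.1% lower without overlap in KO cells, and 44.7% and 45.7% in EV cells. The interactions ranked ID2, ID4 (0.93 ± 0.16), ID1 (0.90 ± 0.17), SMAD6 (0.77 ± 0.18), HEY1 (0.70 ± 0.087), ID3 (0.64 ± 0.15) and BAMBI (0.38 ± 0.059). Beside these stood SMAD7, NOG (-0.029 ± 0.24) and ATOH8.

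Members were tested in 1 comparison, the difference between KO and EV cells averaged over the 2 media. It is built from the same 4 group means as the deprivation responses that chose the members. In this balanced design its estimate is uncorrelated with theirs where the groups spread alike, though the spread used for its test is shared. The spreads were not all alike. For ID2 the deprived KO libraries lay 0.17 apart on the log2 scale, and those of the other groups 0.048 to 0.097 apart. The average was above 0 for ID2 (0.81 ± 0.047, limma adjusted p = 2.4e-06) and SMAD7 (0.21 ± 0.034, adjusted p = 0.0024). It was below 0 for ATOH8 (-0.31 ± 0.065, adjusted p = 0.0077). For ID2 it joins a higher KO level in glucose-deprived medium (1.85 ± 0.066) to a lower one in regular medium (-0.24 ± 0.066). The ID2 call thus comes from the difference in glucose-deprived medium. That difference is also part of the value that chose ID2, so the call is no separate result. SMAD7 was higher and ATOH8 lower in KO cells in both media. The calls are of 2 members above 0 and 1 below, with 9.60% and 10.6% of all genes called in these directions. The other 7 did not pass, from ID4 (0.21 ± 0.079, adjusted p = 0.083) and HEY1 (-0.11 ± 0.044, adjusted p = 0.11) to SMAD6 (0.014 ± 0.092, adjusted p = 0.93). Leaving out a library unbalances the design, and the average is then correlated with the responses that chose the members. The calls gained in that way, of ID1 and NOG without deprived KO library a and of ID4 without deprived EV library b, are therefore not counted.

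**Figure D3:**
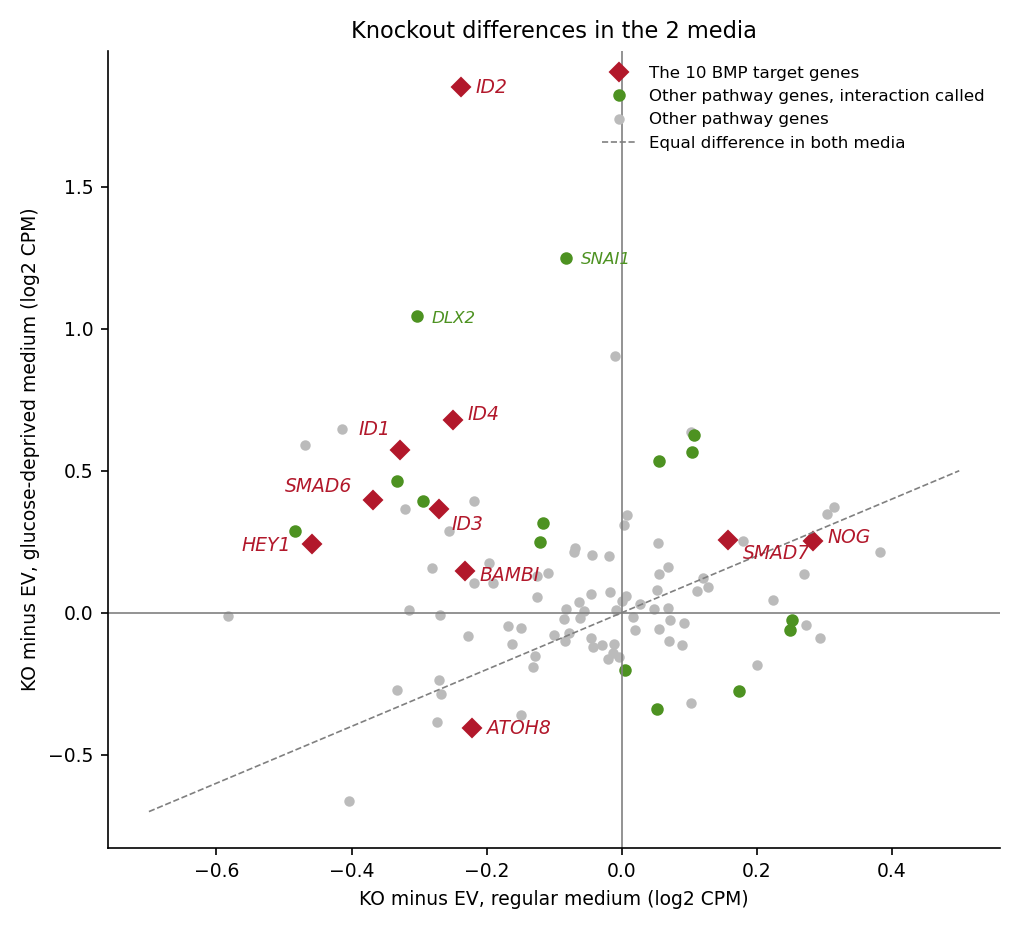
Difference between KO and EV cells in glucose-deprived medium (vertical axis) against that in regular medium (horizontal axis), in log2 CPM, for the 10 genes (red diamonds) and 97 other BMP, SMAD and Notch pathway genes, in green where the interaction was called and grey otherwise. The dashed line marks equal differences in both media. ID2 stands highest at 1.85, 7 of the 10 genes lie in the upper left, and ATOH8 lies in the lower left.

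The sequences before the start sites were set beside the orders of groups. RefSeq (GRCh38.p14) gave windows for 8 of the 10 genes, ID1 to ID4, SMAD6, SMAD7 (3 windows), BAMBI and ATOH8. In the 250 bases before each start 5 motifs were searched on both strands, among 35116 windows of all genes. These were GGCGCC, a GC-rich element bound by SMAD1 and SMAD5 (16.4% of windows), GTCTAGAC, the palindromic SMAD element (0.182%), TGACNNNGC, the antioxidant response element (10.9%), TGATGNAA, an ATF4 element (3.14%), and GAANNTTC, a heat shock element core (5.78%). The windows of ID1 (chr20:31605039-31605288, plus strand), ID2 (chr2:8681806-8682055, plus), ID3 (chr1:23559502-23559751, minus), SMAD6 (chr15:66701986-66702235, plus) and BAMBI (chr10:28677271-28677520, plus) are printed from 5′ to 3′, ID2 because it moved apart and the others because they shared the order of groups. Capitals mark the motif matches, none of which overlap. GGCGCC, GTCTAGAC and GAANNTTC read the same on both strands and were counted once.
ID1: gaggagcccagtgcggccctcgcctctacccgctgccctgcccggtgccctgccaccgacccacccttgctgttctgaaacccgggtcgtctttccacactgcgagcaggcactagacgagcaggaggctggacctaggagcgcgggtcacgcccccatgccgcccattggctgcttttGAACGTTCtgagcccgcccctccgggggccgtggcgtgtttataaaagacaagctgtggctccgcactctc
ID2: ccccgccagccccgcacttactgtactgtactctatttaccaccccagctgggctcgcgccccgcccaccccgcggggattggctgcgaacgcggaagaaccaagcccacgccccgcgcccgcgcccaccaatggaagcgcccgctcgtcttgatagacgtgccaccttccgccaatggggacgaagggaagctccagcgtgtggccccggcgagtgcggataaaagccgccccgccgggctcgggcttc
ID3: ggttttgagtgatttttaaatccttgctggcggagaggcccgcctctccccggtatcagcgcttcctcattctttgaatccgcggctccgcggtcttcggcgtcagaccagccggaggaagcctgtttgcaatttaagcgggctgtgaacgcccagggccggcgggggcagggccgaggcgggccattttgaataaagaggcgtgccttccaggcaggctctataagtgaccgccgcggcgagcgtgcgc
SMAD6: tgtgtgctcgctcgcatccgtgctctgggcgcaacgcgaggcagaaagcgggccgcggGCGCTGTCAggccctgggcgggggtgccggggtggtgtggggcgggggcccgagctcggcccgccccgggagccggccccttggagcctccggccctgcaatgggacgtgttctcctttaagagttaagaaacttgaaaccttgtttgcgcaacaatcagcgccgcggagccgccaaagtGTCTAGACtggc
BAMBI: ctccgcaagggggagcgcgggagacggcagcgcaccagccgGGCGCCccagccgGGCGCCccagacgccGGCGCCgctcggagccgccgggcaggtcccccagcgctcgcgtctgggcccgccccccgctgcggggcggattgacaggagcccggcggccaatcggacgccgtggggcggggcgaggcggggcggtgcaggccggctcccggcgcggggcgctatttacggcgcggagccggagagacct

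Counting back from the start, SMAD6 held the palindromic element at positions -12 to -5 and an antioxidant element at -192 to -184 on the minus strand. BAMBI held GGCGCC 3 times, at -209 to -204, -196 to -191 and -181 to -176, and ID1 held the heat shock core at -71 to -64. The windows of ID2, ID3, ID4 and ATOH8 held none of the 5 motifs, and 1 of 3 windows of SMAD7 held an antioxidant element at -106 to -98. No motif of the 5 was common to the windows of ID1, ID3, SMAD6 and BAMBI, which says only that these letters are not shared there. G and C made up 66.0% of the ID1, 69.2% of the ID2, 62.0% of the ID3, 68.0% of the SMAD6 and 81.2% of the BAMBI window, against a median of 58.0% over all windows.

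The rest of the pathway was read from 11 lists, 97 genes tested beside the members. The lists were chosen with earlier results of these data known, so their counts are not independent of the data. The interaction was called above 0 for 10 of 97 and below 0 for 5, that is 10.3% and 5.15%, with 2.31% and 2.01% of all genes called in these directions (limma, adjusted p under 0.05). Among further BMP target genes it was called above 0 for 4 of 16, with a median of 0.32 against -0.0051 over all genes. The homeobox gene DLX2 had 9.36 and 14.9 CPM in KO and 5.90 and 5.54 CPM in EV cells in glucose-deprived medium, against 11.2 and 9.83 CPM in KO and 13.3 and 12.5 CPM in EV cells in regular medium. Like ID2 it was lowest in deprived EV cells, and its interaction was 1.35 ± 0.23 (adjusted p = 0.011).

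The interaction was also called for TBX2 (0.77 ± 0.14, adjusted p = 0.016) and TBX3 (0.43 ± 0.081, adjusted p = 0.017), T-box repressors, and for HEY2 (0.69 ± 0.15, adjusted p = 0.036), a relative of HEY1. BMP4, a ligand of the pathway, had means of 11.3 CPM in KO and 7.34 CPM in EV cells in glucose-deprived medium, against 10.7 CPM in KO and 9.98 CPM in EV cells in regular medium, with an interaction of 0.52 ± 0.095 (limma adjusted p = 0.016). BMP4 fell with deprivation in EV cells (-0.44 ± 0.067, adjusted p = 0.00013), and in KO cells the difference was 0.076 ± 0.067 (adjusted p = 0.32). FST, follistatin, which binds activins and some BMPs, had an interaction of -0.45 ± 0.11 (adjusted p = 0.044), and RGMB, a BMP co-receptor, one of -0.28 ± 0.050 (adjusted p = 0.014).

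Outside the BMP lists the transcription factor gene SNAI1, a TGF-beta and SMAD3 target, had the lowest adjusted p of the pathway genes for the interaction. It had 56.3 and 57.4 CPM in KO and 24.1 and 23.7 CPM in EV cells in glucose-deprived medium, against 36.2 and 33.1 CPM in KO and 36.2 and 37.1 CPM in EV cells in regular medium. Like ID2, it was highest in deprived KO cells and lowest in deprived EV cells, with an interaction of 1.33 ± 0.070 (limma adjusted p = 4.1e-06). KLF10, a TGF-beta early gene, fell with deprivation by 0.30 in KO cells (adjusted p = 7.5e-05) and by 0.77 in EV cells (adjusted p = 5.8e-08), an interaction of 0.46 ± 0.060 (adjusted p = 0.0025). The interaction was above 0 for the inhibitors TOB1 (0.48 ± 0.090, adjusted p = 0.017) and SKIL (0.37 ± 0.072, adjusted p = 0.020). The corepressor gene TGIF1 rose with deprivation by 0.96 in KO and by 1.35 in EV cells (adjusted p = 1.2e-08 and 1.0e-09), an interaction of -0.39 ± 0.060 (adjusted p = 0.0058). Among Notch genes the interaction was 0.80 ± 0.17 for NOTCH3 (adjusted p = 0.032) and -0.21 ± 0.049 for NOTCH2 (adjusted p = 0.044).

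Among these 15 genes SNAI1 and KLF10 were called under all 14 alternative settings, TGIF1 lost its call in 1 and BMP4 in 2. DLX2 lost it in 3, and CCN2, a TGF-beta target gene named after its values were seen, TBX3 and TOB1 in 4. It was lost for RGMB and TBX2 in 5, HEY2 and SKIL in 6, NOTCH2 and NOTCH3 in 7 and FST in 8. The count of 10 above 0 was 25 without deprived KO library a, 5 without deprived EV library a, 2 without deprived EV library b and 3 without either library of EV cells in regular medium. The share of all genes called above 0 moved with it, from 0.781% without deprived EV library b or without library a of EV cells in regular medium to 6.81% without deprived KO library a. The count of 5 below 0 ranged from 0 without library a of EV cells in regular medium to 11 without deprived KO library a. It was 3 without deprived KO library b, 2 without either deprived EV library and 1 without library b of EV cells in regular medium. The share of all genes called below 0 ranged from 0.345% to 5.28% over the same settings.

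**Figure D4:**
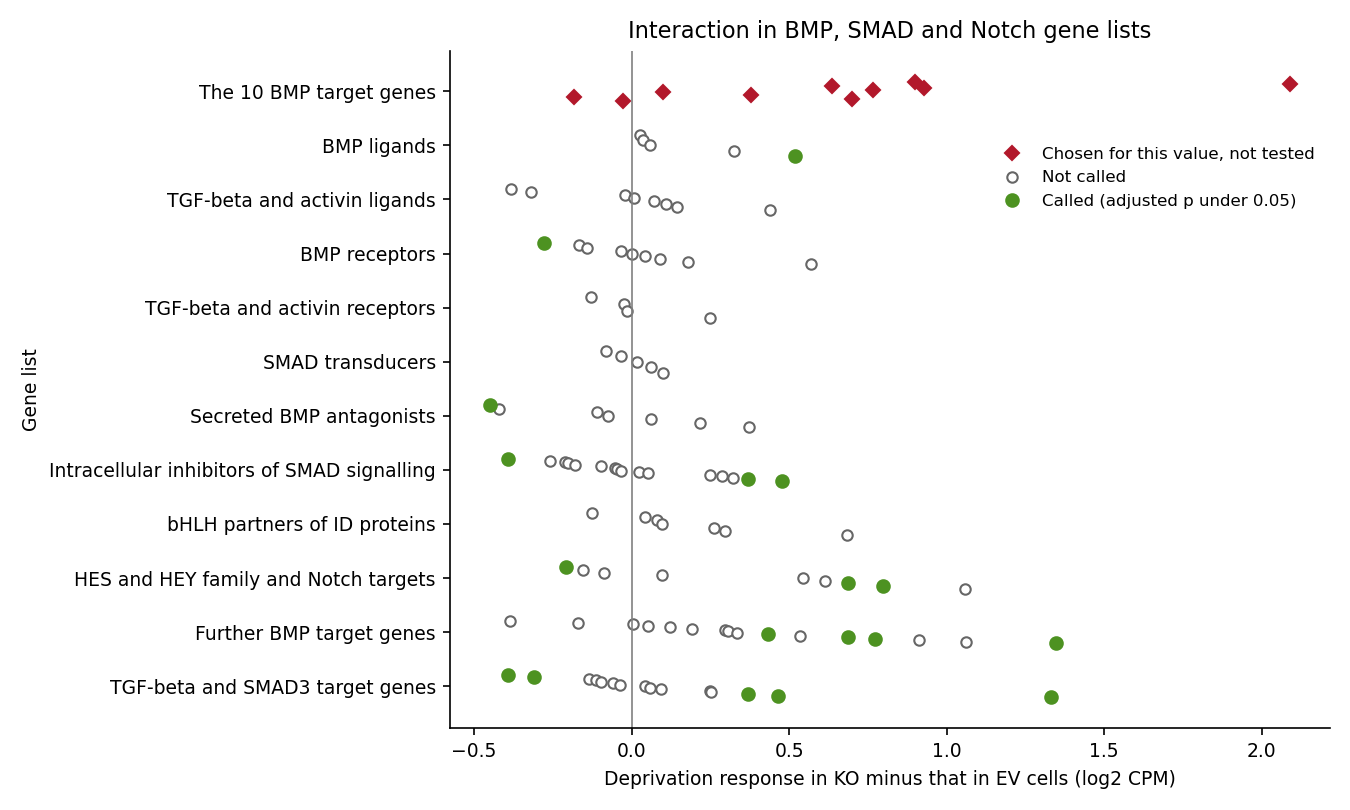
Interaction, the deprivation response in KO minus that in EV cells (horizontal axis, log2 CPM), for the 10 genes (red diamonds) and for each gene tested of the 11 pathway lists (vertical axis), filled green where called at adjusted p under 0.05 and open otherwise. The points in the lists lie mostly near 0, with DLX2 at 1.35 and SNAI1 at 1.33 to the far right, and ID2 stands apart at 2.09.

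Between KO and EV cells in glucose-deprived medium 18 of 97 pathway genes rose and 13 fell, 18.6% and 13.4%, with 9.04% and 10.6% of all genes called. Further BMP targets had 7 of 16 that rose, among them DLX2 (1.04 ± 0.17, limma adjusted p = 0.0023) and the transcription factor gene GATA2 (0.64 ± 0.097, adjusted p = 0.0018). BMP4 rose by 0.62 ± 0.067 (adjusted p = 0.00023). CTDSP1, a phosphatase that acts on SMADs, fell (-0.66 ± 0.055, adjusted p = 3.9e-05). Among 9 BMP receptors ACVR2B came nearest to the threshold, at -0.16 ± 0.060 (adjusted p = 0.084). Both counts were lower without either deprived EV library or without deprived KO library b. The shares of all genes called were lower in these fits too.

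In regular medium 8 of 97 rose in KO cells and 5 fell, 8.25% and 5.15%, with 3.87% and 3.38% of all genes called. CTDSP1 fell (-0.40 ± 0.055, limma adjusted p = 0.0021). The co-receptor genes RGMB and RGMA went opposite ways, RGMB rising (0.25 ± 0.035, adjusted p = 0.0026) and RGMA falling (-0.58 ± 0.12, adjusted p = 0.016). TBX2 fell (-0.48 ± 0.10, adjusted p = 0.020), the one further BMP target of 16 that was called. Both counts were lower when either library of EV cells in regular medium was left out. Fewer pathway genes rose without either deprived EV library, and more fell without either deprived KO library. In each of these fits the share of all genes called moved in the same direction.

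In glucose-deprived against regular medium 27 pathway genes rose and 40 fell in KO cells, 27.8% and 41.2%, with 36.5% and 36.8% of all genes called. In EV cells 26 rose and 49 fell, 26.8% and 50.5%, with 37.5% and 38.7% of all genes called. These comparisons share libraries with those between KO and EV cells. BMP2, a ligand, had means of 52.6 CPM in KO and 49.8 CPM in EV cells in glucose-deprived medium, against 16.9 CPM in KO and 16.3 CPM in EV cells in regular medium. It rose by 1.64 ± 0.070 in KO cells (limma adjusted p = 9.9e-09) and by 1.61 ± 0.070 in EV cells (adjusted p = 1.0e-08), opposite in direction to the differences of ID1, ID3 and SMAD6. BMP8B, another ligand, fell in KO (-0.70 ± 0.050, adjusted p = 4.2e-07) and EV cells (-0.73 ± 0.050, adjusted p = 2.6e-07). Of 5 BMP ligands tested 2 rose and 2 fell in KO cells, and 2 rose and 3 fell in EV cells. The antagonist FST rose (1.16 ± 0.075 in KO and 1.61 ± 0.075 in EV cells, adjusted p = 1.9e-07 and 1.6e-08). Of 7 secreted antagonists 2 rose and 4 fell in KO cells, and 3 rose and 4 fell in EV cells.

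Receptors and SMADs moved in both directions. BMPR2, the main type II receptor, fell in KO (-0.46 ± 0.040, limma adjusted p = 1.8e-06) and EV cells (-0.64 ± 0.040, adjusted p = 1.3e-07), and ACVR1, a type I receptor, rose by 0.50 ± 0.049 (adjusted p = 4.9e-06) and 0.67 ± 0.049 (adjusted p = 4.8e-07) in these cells. BMPR1B fell in KO and EV cells (-0.41 ± 0.072 in each, adjusted p = 0.00041 and 0.00037). The co-receptor ENG fell too (-0.74 ± 0.055 in KO and -0.78 ± 0.055 in EV cells, adjusted p = 5.6e-07 and 3.4e-07), as did the co-receptor RGMA (-1.03 ± 0.12 and -1.60 ± 0.12, adjusted p = 1.4e-05 and 4.3e-07). The type I receptor BMPR1A differed by -0.11 ± 0.054 in KO cells (adjusted p = 0.090) and fell in EV cells (-0.20 ± 0.054, adjusted p = 0.0062). For the type II receptor ACVR2A the values were -0.13 ± 0.070 in KO and -0.10 ± 0.070 in EV cells (adjusted p = 0.11 and 0.21), whereas ACVR2B rose by 0.36 ± 0.060 in KO and by 0.50 ± 0.060 in EV cells (adjusted p = 0.00028 and 2.1e-05). SMAD5 fell by 0.40 in KO (adjusted p = 5.9e-06) and 0.47 in EV cells (adjusted p = 1.8e-06). SMAD4, the common partner, had means of 89.4, 88.8, 90.5 and 91.0 CPM in deprived KO, deprived EV, regular KO and regular EV cells. SMAD1 was at 10.1 CPM in KO and 9.87 CPM in EV cells in glucose-deprived medium, against 8.96 CPM in KO and 9.36 CPM in EV cells in regular medium. TCF3, an E protein partner of the ID proteins, fell in KO (-0.86 ± 0.088, adjusted p = 7.0e-06) and EV cells (-1.15 ± 0.088, adjusted p = 6.3e-07).

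Over the 8 libraries ID1 correlated with SMAD6 (Pearson r = 0.999), ID3 (0.997) and BAMBI (0.986), with ID2 at -0.16 and with ID4 at -0.71. ID2 correlated with ID4 at 0.77 and with ID3 at -0.21. These values describe 8 libraries that are split by medium. Among 738 variable genes outside the members the pattern most like that of ID2 was that of HSPH1, a heat shock protein of the HSP110 family (r = 0.978), which had means of 733 CPM in KO and 228 CPM in EV cells in glucose-deprived medium, against 356 CPM in KO and 342 CPM in EV cells in regular medium. IER5 (0.929), GEM (0.860), the co-chaperone gene DNAJB4 (0.856) and BAG3 (0.852) came next. For ID1 these were RRS1, SLC16A3, RPS6KA4, KLF16 and IGFBP4 (0.996 to 0.998), and for ID3 PLXND1, IGFBP4, INAVA, SFPQ and KLF16 (0.997 to 0.998). Pearson r takes no account of the size of a change. The interactions were 0.19 to 0.36 for the genes like ID1, beside 0.90 for ID1. They were 0.19 to 0.30 for the genes like ID3, beside 0.64 for ID3.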

How the data were processed

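RNA-seq libraries were made from total RNA with a SMART-Seq kit and Nextera XT, per the labels' protocols, which does not mark strand. The authors used HISAT2, edgeR and GRCh38, per the submitters' processing notes, with versions not given in the sources used here. The deposited values are log2 CPM per gene. The header term GlcN was read as the glucose-deprived group of the labels, although these letters also abbreviate glucosamine. Columns carry no replicate number.

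Values turned back to CPM were whole multiples of 1 read, plus an offset of 0.0230 CPM, in 100% of values (tolerance 0.05 reads). Of 13730 genes, 82 without a symbol, 13057 had a mean log2 CPM of at least 0 and were tested. A linear model over the 4 groups was fitted in limma 3.58.1 (R 4.3.3) with a variance trend, 4 residual degrees of freedom and Benjamini-Hochberg adjustment over all genes tested, and was tested on simulated data. Calls needed an adjusted p under 0.05. The deposited unit is log2, and the main fit used these values. Recovered reads entered alternative fits with limma's voom and with median-of-ratios scaling, and edgeR and DESeq2 were not run on them. The SE had a median of 0.0547 for a difference between groups and 0.0773 for the interaction (log2). Since the labels name no separate cultures, a p-value here reflects library-to-library spread alone. Levels per kb use the joined length of all GENCODE 29 exons of a gene.

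The members and lists were chosen with earlier results of these data known. Pathway genes were named where called, up to 3 per list by adjusted p for the interaction and up to 2 for other comparisons, with the BMP receptors, SMAD1, SMAD4 and SMAD5 named whatever their test. Patterns like ID1, ID2 and ID3 were the 5 genes of highest Pearson r with SD of at least 0.5 and mean log2 CPM of at least 3. Alternatives changed the offset, filter, variance trend or scaling, or left out 1 library.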

Additional observations from a re-analysis of the deposited data

Results flagged for a closer look

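In 15 pathway genes the deprivation response of KO cells differed from that of EV cells by the test of the interaction (limma, adjusted p under 0.05 over all genes). The log2 differences above 0 were 1.35 for DLX2, 1.33 for SNAI1, 0.80 for NOTCH3, 0.77 for TBX2, 0.69 for HEY2, 0.52 for BMP4, 0.48 for TOB1, 0.46 for KLF10, 0.43 for TBX3 and 0.37 for SKIL. Those below 0 were -0.45 for FST, -0.39 for TGIF1, -0.31 for CCN2, -0.28 for RGMB and -0.21 for NOTCH2. CCN2, a TGF-beta and YAP/TAZ target gene, falls outside the rule for named genes and was chosen after its values were seen (adjusted p = 0.0097). The 10 BMP target genes are left out here, since they were chosen for this value.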

How the results depend on the processing

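Over 14 alternatives the interaction of ID2 stayed between 1.98 and 2.17, that of ID1 between 0.66 and 1.14, and that of NOG between -0.27 and 0.21, with the other sign in 5 of 14. The SMAD7 deprivation difference in KO cells changed sign in 1. The KO average of SMAD6 crossed 0, between -0.086 and 0.11, as did that of ID3, between -0.028 and 0.12, and neither was called. Without a variance trend the pathway counts above 0 were 5 for KO against EV in regular medium and 5 for the interaction, and those below 0 were 8 in glucose-deprived medium and 1 for the interaction. With 1 library left out, members that rose in the KO average numbered 2 to 4. Pathway genes called above 0 numbered 10 to 27 in glucose-deprived medium, 1 to 8 in regular medium and 2 to 25 for the interaction, and those below 0 5 to 17, 1 to 13 and 0 to 11 in the same order. The shares of all genes called also changed over these fits, and the cause was not tested. Members that rose in the KO average beyond ID2 and SMAD7 were ID1, NOG and ID4, gained by leaving out a deprived library. These calls are not counted, because the average is then correlated with the responses that chose the members. A group left with 1 library is assumed to vary like the others. The fit of recovered reads with limma's voom was added after seeing the data. edgeR and DESeq2 were not run, although whole reads were recovered. No paired analysis was possible because the columns carry no replicate numbers. With 2 libraries a group, a typical log2 difference has an SE of 0.0547, and genes near 1 CPM are less precise.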
